A study of Mus musculus with 3 samples.

Results

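Arterial endothelial cells (ECs) line the vessels that carry blood toward the capillaries. Here they were 123 cells of the 7642 that passed a filter on cell quality and of the 9644 cells deposited. Mouse 2 gave 45 of them, mouse 3 gave 30, and mouse 4 gave 48. They were chosen by a gate on unique molecular identifiers (UMIs), the random tags that count each captured transcript once. A cell needed at least 4 UMIs of *Cdh5* and *Cldn5* together, which encode junction proteins of ECs, and at least 2 UMIs of *Gja5*, which encodes the gap junction protein connexin 40. It also had to lack *Ptprc*, a leukocyte gene, and the lymphatic genes *Prox1* and *Mmrn1*, hold at most 5 UMIs of *Col1a1* and *Col1a2* together, and have under 2% of its UMIs from *Sftpc*. The levels of these gate genes are descriptions and were not tested.

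Room air (RA) was the only condition. It was breathed from P1 by 3 wild-type mice of the strain C57BL/6, whose lungs were taken at P14. Whole lungs were dissociated into single cells, so the caliber and position of each vessel were lost, and pulmonary and bronchial arteries cannot be told apart. Each mouse gave 1 library and is 1 replicate. P-values therefore measure the spread between these 3 mice within each cell group. The main test did not pair the cell groups of a mouse. The arterial cells carried 492071, 449811, and 547535 UMIs in mice 2, 3, and 4, and the median cell held 8437 UMIs of 3342 genes. They were compared with 722 other ECs, which passed the same exclusions and held 0 or 1 UMI of *Gja5*. The other ECs had 2799271, 1649113, and 2397793 UMIs and a median of 7610.5 UMIs per cell. No arterial cell shared its barcode with a cell of another library, although 12 barcodes occurred in 2 libraries. Levels are given as CPM, counts per 1000000 UMIs of the summed cells of a mouse.

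Arterial identity arises in development under VEGF and Notch signaling. The ligands *Dll4* and *Jag1* on a cell activate *Notch1* and *Notch4* on its neighbor, and the cleaved receptor joins the DNA-binding protein RBPJ to switch on targets such as *Hey1* and *Hey2*. Arterial ECs are coupled to each other by connexins, rest on an elastic layer rich in elastin and fibrillin, and set vessel tone through nitric oxide, endothelin, and potassium channels. In the lung, a capillary EC type marked by *Car4* and *Ednrb* lies beside another marked by *Aplnr* and *Kit*, and venous ECs carry *Nr2f2* and *Slc6a2*.

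The 250 bases upstream of the annotated start of 6 genes are shown. *Gja5* chose the cells and *Gja4* encodes a second arterial connexin. *Cxcl12*, *Hey2*, *Esr2*, and *Bmx* were higher in these cells and held the core letters bound by RBPJ in this window. The sequences are from RefSeq on GRCm38.p6, read 5′ to 3′ on the strand of the gene, and end at the base before the start. The windows are *Gja5* at chr3:97032152-97032401 (plus strand), *Gja4* at chr4:127314040-127314289 (minus strand), *Cxcl12* at chr6:117168285-117168534 (plus strand), *Hey2* at chr10:30842784-30843033 (minus strand), *Esr2* at chr12:76177260-76177509 (minus strand), and *Bmx* at chrX:164258194-164258443 (minus strand). Capitals mark the longest run shared by the *Gja5* and *Gja4* windows in those windows, and TGGGAA or its reverse complement TTCCCA in the others.
Gja5: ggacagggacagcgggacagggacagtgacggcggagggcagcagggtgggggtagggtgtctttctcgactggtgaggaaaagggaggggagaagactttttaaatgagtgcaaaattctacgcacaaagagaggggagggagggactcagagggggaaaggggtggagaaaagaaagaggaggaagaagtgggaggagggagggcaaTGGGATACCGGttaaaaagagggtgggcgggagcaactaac
Gja4: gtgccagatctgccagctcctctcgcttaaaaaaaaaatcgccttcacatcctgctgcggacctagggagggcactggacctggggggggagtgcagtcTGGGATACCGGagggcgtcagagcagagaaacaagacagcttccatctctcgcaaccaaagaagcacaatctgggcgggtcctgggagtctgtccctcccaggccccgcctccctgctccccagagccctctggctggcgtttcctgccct
Cxcl12: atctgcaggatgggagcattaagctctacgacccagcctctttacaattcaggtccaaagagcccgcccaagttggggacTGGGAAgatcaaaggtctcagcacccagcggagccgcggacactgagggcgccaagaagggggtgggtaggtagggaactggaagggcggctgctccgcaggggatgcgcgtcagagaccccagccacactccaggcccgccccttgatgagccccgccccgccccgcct
Hey2: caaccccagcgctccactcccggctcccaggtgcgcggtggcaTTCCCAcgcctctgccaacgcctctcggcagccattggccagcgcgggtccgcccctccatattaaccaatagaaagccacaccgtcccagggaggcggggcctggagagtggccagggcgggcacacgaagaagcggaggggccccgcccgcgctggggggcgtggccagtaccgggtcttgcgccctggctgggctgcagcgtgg
Esr2: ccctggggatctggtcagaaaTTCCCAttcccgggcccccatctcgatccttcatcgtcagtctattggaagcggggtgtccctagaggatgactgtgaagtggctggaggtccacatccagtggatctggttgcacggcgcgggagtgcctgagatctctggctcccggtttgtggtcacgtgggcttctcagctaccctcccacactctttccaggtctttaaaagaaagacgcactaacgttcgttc
Bmx: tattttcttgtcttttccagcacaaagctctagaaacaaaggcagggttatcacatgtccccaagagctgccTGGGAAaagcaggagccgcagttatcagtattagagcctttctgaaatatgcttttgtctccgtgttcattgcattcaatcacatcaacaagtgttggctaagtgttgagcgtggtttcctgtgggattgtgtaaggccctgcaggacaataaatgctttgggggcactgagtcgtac
The run shared by *Gja5* and *Gja4* was 11 bases long and began 41 bases before the start of *Gja5* and 151 bases before that of *Gja4*. It was found by comparing these sequences. On either strand 4 of 32851 promoter windows held it (0.0122%), those of *Gja5* and *Gja4* themselves and those of *Dao* and *Vps4a*. Whether a shared run of this length is more than a chance match was not tested. The letters TGGGAA were searched on both strands. They began 170 bases before the start in *Cxcl12* and 178 in *Bmx*, and on the opposite strand 207 bases before the start in *Hey2* and 229 in *Esr2*. A gene can have several windows or none in the RefSeq table. Of all 32851 windows 21.6% held the letters, and of the 9240 windows of 7179 tested genes 19.8% did. They were in 23.2% of the 839 windows of 621 genes higher in arterial ECs and in 18.8% of the 800 windows of 559 genes lower in arterial ECs. They were not in the windows of *Gja5*, *Gja4*, *Sema3g*, *Dll4*, *Jag1*, *Efnb2*, *Nrarp*, *Dkk2*, *Gkn3*, *Mecom*, or *Unc5b*. A match is a run of letters and not a shown binding site.

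Arterial cells were a similar share of the EC gate in the 3 mice. They were 12.6%, 13.2%, and 13.2% of the cells with *Cdh5* and *Cldn5* in mice 2, 3, and 4 (mean 12.98% ± 0.360, SD, n = 3). Exact 95% binomial intervals, which cover counting error only, ran from 9.32% to 16.5%, from 9.06% to 18.2%, and from 9.91% to 17.1%, and all overlapped. Of all filtered cells they were 1.89%, 1.15%, and 1.81% (1.62% ± 0.402), lowest in mouse 3. That mouse gave the most B-lineage cells (881, against 395 and 511 in mice 2 and 4). It also gave the fewest cells with *Cdh5* and *Cldn5* (228, against 358 and 363). The cause of its low share was not tested. *Gja5* was at 634, 767, and 864 CPM in the arterial cells and at 5.72, 6.06, and 7.09 CPM in other ECs, as the gate fixed. An arterial cell held a median of 6 *Gja5* UMIs, with a range from 2 to 40.

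The arterial label was checked against *Gja4*, *Cxcl12*, *Sema3g*, and *Hey1*, the other markers named for it, and all 4 were higher in the arterial cells of each mouse. *Cxcl12*, a chemokine that attracts cells carrying *Cxcr4*, was at 2400.1, 2670.0, and 3119 CPM in arterial ECs of mice 2, 3, and 4, and at 477, 283, and 425 CPM in other ECs (log2 fold 2.84, SE 0.15, edgeR adjusted p = 1.8e-10). *Gja4*, which encodes connexin 37, was at 697, 631, and 603 CPM, against 262, 179, and 241 (log2 fold 1.55, SE 0.12). *Hey1*, a Notch target, was at 445, 427, and 369 CPM, against 119.7, 113, and 122 (log2 fold 1.86, SE 0.10). *Sema3g*, a secreted semaphorin, was higher by a log2 fold of 1.45 (SE 0.12). These markers were named with results of these data in view and are not independent evidence of identity.

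Across 9278 genes tested, 828 were higher in arterial than in other ECs (8.92%) and 770 were lower (8.30%) at an adjusted p under 0.05. The median log2 fold of all tested genes was 0.0072. The 20 largest increases and the 10 largest decreases were named among genes with a mean of at least 50 CPM in the higher group. *Sfrp1* and *Dkk2*, which encode secreted regulators of Wnt signaling, were among the increases. *Sfrp1* was at 146, 205, and 363 CPM in arterial ECs, against 1.43, 3.64, and 1.67 (log2 fold 6.88, SE 0.37), and *Dkk2* was at 93.5, 107, and 126 CPM, against 1.43, 1.21, and 4.17 (log2 fold 5.56, SE 0.29). *Sfrp1* had a UMI in 25 of 123 arterial cells, up to 65 UMIs in a cell, in 9 of 722 other ECs, and in 2 of 1787 B-lineage cells, which should lack it. *Dkk2* had a UMI in 31 of 123 arterial cells, in 8 of 722 other ECs, and in 1 of the B-lineage cells. With every cell thinned to 3000 UMIs, a UMI would be found in 16.7% ± 4.74 of arterial cells for *Sfrp1* and in 16.2% ± 1.48 for *Dkk2* (SD, n = 3). Cells without a UMI may still hold transcripts of these genes.

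*Gkn3*, a member of the gastrokine family, was at 114, 196, and 121 CPM, against 3.57, 3.64, and 4.17 in other ECs, and had a UMI in 38 of 123 arterial cells, 16 of 722 other ECs, and 5 of 1787 B-lineage cells. *Bmx*, a tyrosine kinase of the Tec family, had a UMI in 93 of the 123 arterial cells (75.6%), in 65 of 722 other ECs (9.003%), and in 3 of 1787 B-lineage cells, which should lack it. Its level was 299, 309, and 256 CPM, against 19.6, 32.1, and 26.3 (log2 fold 3.57, SE 0.15). *Slc45a4*, a membrane transporter, was at 504, 474, and 426 CPM, against 22.9, 12.1, and 18.8, and *Cytl1*, a small secreted protein, was at 543, 591, and 626 CPM, against 23.6, 47.9, and 37.95. Of the rest of the 20, the genes reported here were the potassium channel subunits *Kcne3* and *Kcnn4*, the ephrin *Efna5*, the transcription factors *Hey2* and *Esr2*, the chemerin receptor *Cmklr1*, the sulfatase *Sulf1*, *Fhdc1*, *Syt15*, *Enpp6*, *Eps8l2*, *Kank1*, and *Rasgrf2*. Their log2 folds ran from 3.65 for *Rasgrf2* to 5.05 for *Kcne3*.

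The 10 largest decreases included *Chst1*, *Fibin*, and *Car4* of the *Car4*-type list and *Sema3c* of the *Aplnr* and *Kit* list described below. *Rgcc*, a cell cycle regulator, was at 10.2, 6.67, and 36.5 CPM in arterial ECs, against 252, 273, and 198 (log2 fold -3.61, SE 0.28), and *Fabp4*, a fatty acid carrier of capillary ECs, was at 116, 55.6, and 3.65 CPM, against 347, 674, and 231. *Fabp4* did not pass with DESeq2 (adjusted p = 0.097). The others reported here were the collagen *Col15a1*, *Car14*, and *Lhx6*. *Chst1* had only 4 arterial UMIs. In all, 28 genes were reported this way, 19 higher and 9 lower in arterial ECs.

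**Figure D1:**
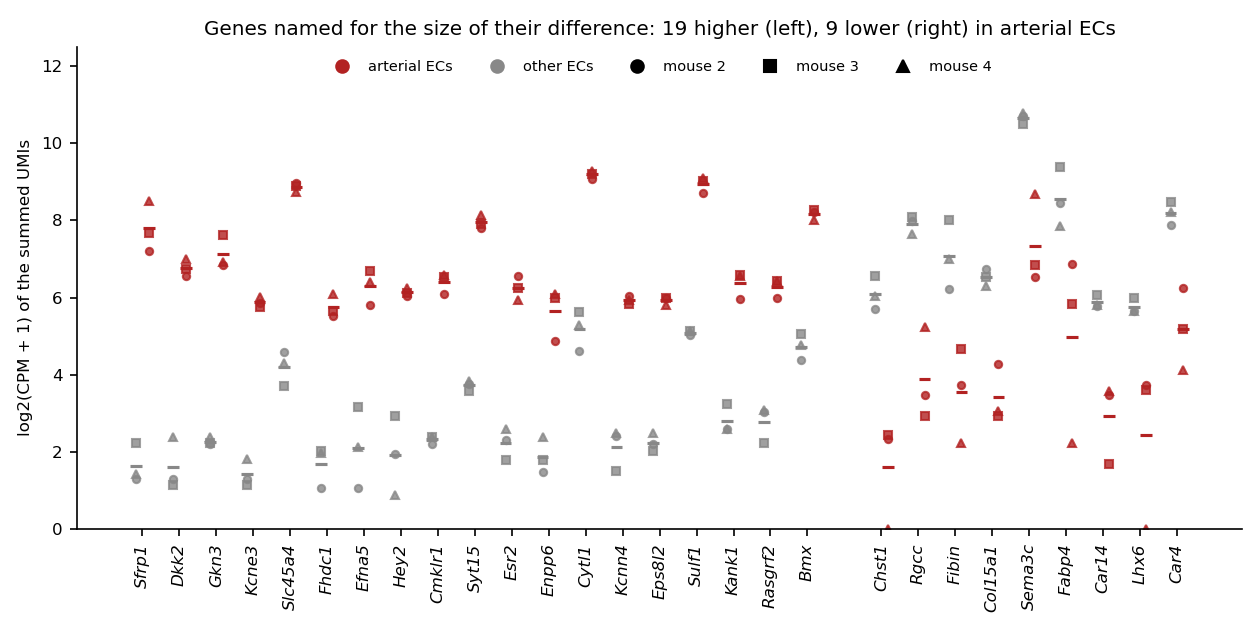
Level of each of the 28 genes (y axis, log2 of CPM + 1 of the summed UMIs) in arterial ECs (red) and other ECs (gray), with 1 symbol per mouse and a line at the mean of the 3 log2 values. The 19 genes on the left were higher and the 9 on the right lower in arterial ECs.

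*Esr2*, which encodes estrogen receptor beta, was higher in these cells. It was at 93.5, 75.6, and 60.3 CPM in arterial ECs, against 3.93, 2.43, and 5.005 in other ECs (log2 fold 4.31, SE 0.28, edgeR adjusted p = 3.8e-09). It had a UMI in 59 of 123 arterial cells (48.0%), which were 23 of 45, 14 of 30, and 22 of 48 in mice 2, 3, and 4. The exact 95% interval of 38.9% to 57.2% pools the mice and covers counting error only. *Esr2* had a UMI in 20 of 722 other ECs (2.77%) and in 1 of 1787 B-lineage cells, whose median depth was 4039 UMIs. With every cell thinned to 3000 UMIs, 23.3% ± 4.13 of arterial cells and 1.59% ± 0.564 of other ECs held an *Esr2* UMI in expectation (SD, n = 3). The thinning left out 4 arterial cells and 76 other ECs.

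For a few genes the arterial cells held most of the UMIs found in the lung, although they were 1.61% of the filtered cells and held 2.24% of the UMIs. They held 73.0%, 73.9%, and 66.0% of the *Esr2* UMIs of mice 2, 3, and 4 (71.0% ± 4.33), 113 of 159 in all. Another 40 were in other cells with *Cdh5* and *Cldn5*, and 2 in 1297 cells with *Epcam* and *Cdh1*, epithelial genes. For *Dkk2* the share was 83.6%, 72.7%, and 85.2%, and for *Enpp6*, a choline phosphodiesterase, it was 60.9%, 59.6%, and 68.5%. The share of *Gja5* was 72.8% ± 4.98, which the gate favored. That of *Bmx* was 50.1% ± 4.33 and that of *Gkn3* ran from 42.9% to 57.1%, and 123 of the 420 *Gkn3* UMIs were in the cells with *Epcam* and *Cdh1*. The share of *Kcne3* ran from 36.9% to 65.1% and that of *Sfrp1* from 28.8% to 55.6%, the widest ranges between mice with that of *Selp*. Of the 891 *Sfrp1* UMIs, 430 were in cells outside the EC gate.

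**Figure D2:**
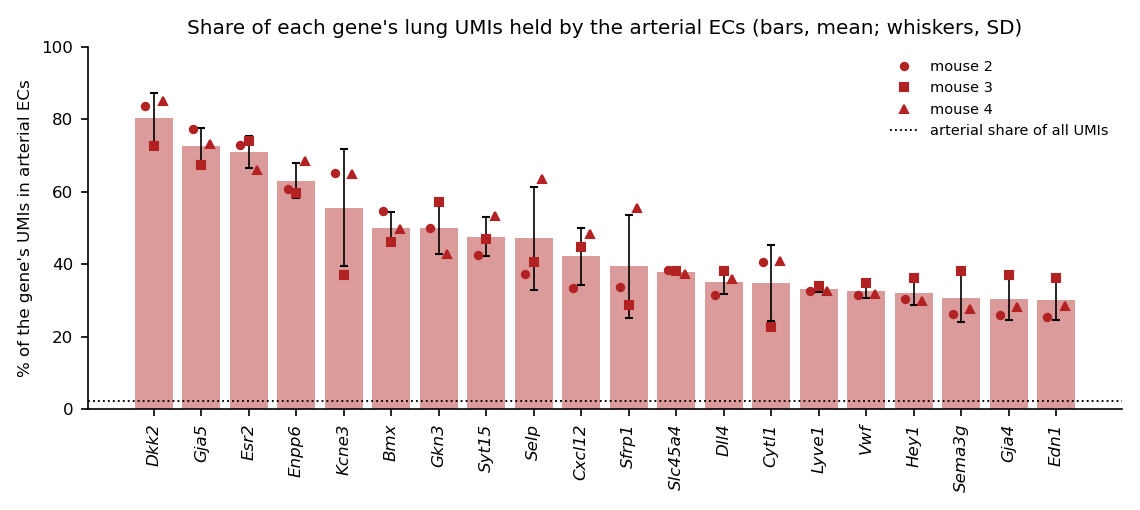
Share of each gene's UMIs in the filtered lung cells that lay in the 123 arterial ECs (y axis, percent; bars, mean of 3 mice; whiskers, SD; symbols, mice), for the 20 genes described here with the largest share and at least 100 lung UMIs. The dotted line is the arterial share of all UMIs, 2.24%, and the bars run from 80.5% for *Dkk2* to 30.02% for *Edn1*.

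Several Notch ligands, receptors, and targets were higher in arterial ECs. Of 8 ligands and receptors 6 could be tested, and 4 were higher and none lower. Among all 9278 tested genes 8.92% were higher and 8.30% lower, the shares to set beside each list count against other ECs. The lists were chosen with earlier results of these data known. *Dll4* was at 476, 467, and 480.3 CPM, against 149, 132, and 141 (log2 fold 1.81, SE 0.09), with little spread between mice. *Jag1* was at 136, 171, and 169.9 CPM, against 61.4, 73.4, and 75.9, *Notch1* was higher by a log2 fold of 0.97, and *Notch4* by 0.75. The ligands *Jag2* (log2 fold -0.19, adjusted p = 0.68) and *Dll1* (0.15, adjusted p = 0.65) did not pass the threshold. The median log2 fold of the 6 was 0.86.

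Of 11 tested Notch modifiers and targets, 3 were higher and 1 was lower, with a median log2 fold of 0.37. The target *Hey2* was at 65.03, 68.9, and 74.9 CPM, against 2.86, 6.67, and 0.834, and *Nrarp*, a target that feeds back on the pathway, was at 128, 169, and 159 CPM, against 45.01, 40.6, and 43.8. *Lfng*, a glycosyltransferase that modifies Notch receptors, was at 50.8, 37.8, and 45.7 CPM, against 110.4, 137, and 111 (log2 fold -1.33, SE 0.17). *Hes1*, another target, was at 167, 100, and 155 CPM, against 181, 179, and 195, and did not pass (log2 fold -0.32, adjusted p = 0.15), except with no filter on low counts (0.032). The genes of the core machinery, *Rbpj*, *Maml1*, *Adam10*, and *Adam17*, did not pass either.

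In a list of 22 arterial genes, 18 of 21 tested were higher and 1 was lower, with a median log2 fold of 1.80. *Efnb2*, the arterial ephrin, was at 1461, 1616, and 1574 CPM, against 467, 392, and 498, and *Mecom*, a zinc finger transcription factor, was at 471, 449, and 455 CPM, against 56.4, 38.8, and 47.5 (log2 fold 3.30, SE 0.12). *Tm4sf1*, a membrane protein of ECs, *Unc5b*, a netrin receptor, *Clu*, and *Cdh13* were also higher, by log2 folds of 1.80, 1.51, 2.78, and 2.81. The arterial transcription factor *Sox17* did not pass against other ECs as a whole. It was at 364, 429, and 442 CPM in arterial and 406, 352, and 409.5 CPM in other ECs, and these ranges overlapped (log2 fold 0.14, adjusted p = 0.42). *Vegfc* was lower (log2 fold -0.85, SE 0.21), but not without mouse 3 or without mouse 4 (adjusted p = 0.12 and 0.081), with a stricter cell filter (0.1), or against all other cells with *Cdh5* and *Cldn5* (0.055).

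Several genes of elastic fibers were higher, while the collagen IV chains *Col4a1* and *Col4a2* were lower. Of 14 tested genes of elastic and microfibrillar matrix, 8 were higher and 1 was lower (median log2 fold 0.98). *Mgp*, an inhibitor of calcification and of BMPs, was at 4568, 5749, and 6347 CPM, against 414, 845, and 514 (log2 fold 3.31, SE 0.19). *Fbln5*, which helps to assemble elastic fibers, was at 2280.2, 2309.9, and 2175 CPM, against 405, 665, and 396, and its partner *Ltbp4* was at 2207, 2319, and 2062 CPM, against 329, 463, and 306. *Lox*, which crosslinks elastin and collagen, was at 126, 169, and 146 CPM, against 8.22, 25.5, and 20.4. *Fbn1* (log2 fold 2.84), *Ltbp3* (1.27), and *Fbln2* (1.10) were also higher, and the microfibril gene *Mfap2* was lower (-1.52).

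Elastin itself was less clear. *Eln* was at 8344, 8579, and 5985 CPM in arterial ECs, against 3051, 6708, and 3482 in other ECs. These ranges overlapped, although within each mouse the arterial value was higher. The difference passed (log2 fold 0.86, SE 0.20, edgeR adjusted p = 0.0056). It did not pass with DESeq2, where the fold was about as large (log2 fold 0.85, adjusted p = 0.21), or without mouse 2 (log2 fold 0.57, adjusted p = 0.13).

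Of 15 tested basement membrane genes, 5 were higher and 6 were lower. *Col4a1* was at 1002, 960.4, and 811 CPM, against 3408, 3029, and 3085 (log2 fold -1.72, SE 0.09), and *Col4a2*, its partner chain, was lower by nearly as much (-1.66). *Col15a1*, the linker proteins *Nid1* and *Nid2*, and *Sparc* were lower as well. Of 5 tested laminin chains 3 were higher, with *Lamb2* at 348, 276, and 321 CPM, against 126, 135, and 122 (log2 fold 1.37, SE 0.11), and *Lama4* at 91.5, 118, and 122 CPM, against 61.8, 55.8, and 50.05. *Lama5* (log2 fold 0.52) did not pass without mouse 3 or without mouse 4 (adjusted p = 0.29 and 0.22), without TMM scaling (0.051), or with DESeq2 (0.0501). *Lamb1* (log2 fold -0.25, adjusted p = 0.67) and *Lamc1* (0.11, adjusted p = 0.62) did not pass. *Sparcl1* and *Agrn* were also higher.

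Of 12 tested genes that set vessel tone, 6 were higher and 1 was lower (median log2 fold 0.87). *Nos3*, the endothelial nitric oxide synthase, was at 203, 238, and 261 CPM, against 90.7, 116, and 107 (log2 fold 1.24, SE 0.12), and *Edn1*, which encodes the constrictor endothelin-1, was at 372, 640.3, and 489 CPM, against 159, 232, and 217. Both tested potassium channel genes of the list were higher. *Kcnn4*, a calcium-activated channel, was at 65.03, 55.6, and 60.3 CPM, against 4.29, 1.82, and 4.59, and *Kcnj2*, an inward rectifier, was at 60.97, 57.8, and 49.3 CPM, against 8.57, 6.06, and 7.09. *Kcne3*, a channel subunit named above and outside the list, was at 56.9, 53.4, and 63.9 CPM, against 1.43, 1.21, and 2.50. *Ace*, the angiotensin-converting enzyme, was higher by a log2 fold of 0.75, and *Ednrb*, an endothelin receptor, was lower (-1.18). *Gucy1a1*, a subunit of the nitric oxide receptor that is abundant in smooth muscle and pericytes, was at 28.5, 40.02, and 45.7 CPM, against 7.50, 4.24, and 4.17. Against all 826 other cells with *Cdh5* and *Cldn5*, which include those with more collagen UMIs, its log2 fold was -0.74 and did not pass (adjusted p = 0.15).

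Guidance genes moved in both directions, with 10 of 23 tested higher and 7 lower, beside 8.92% and 8.30% of all tested genes. *Plxnd1*, a semaphorin receptor, was at 994, 887, and 1081 CPM, against 307, 282, and 285 (log2 fold 1.82, SE 0.09). The ephrins *Efna5* and *Efna1*, the secreted cues *Slit2*, *Slit3*, and *Ntn4*, and the receptor *Plxna4* were higher too. Against all other cells with *Cdh5* and *Cldn5*, *Slit2* did not pass (log2 fold 0.15, adjusted p = 0.85). *Sema3c*, a secreted semaphorin, was at 91.5, 113, and 409 CPM, against 1678, 1443, and 1760.0 (log2 fold -2.88, SE 0.29), and was highest among arterial samples in mouse 4. *Nrp2*, a receptor for semaphorins and VEGF-C, *Efnb1*, and the venous ephrin receptor *Ephb4* were also lower, by log2 folds of -2.42, -1.17, and -0.62.

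Of 9 tested genes of chemokines and adhesion, 6 were higher and 1 was lower. *Cxcr4*, the receptor for *Cxcl12*, was at 445, 393, and 400.0 CPM, against 133, 108, and 115 (log2 fold 1.85, SE 0.11), and *Ackr3*, its scavenging receptor, was at 154, 111, and 74.9 CPM, against 195, 250.4, and 239. *Vcam1*, an adhesion receptor for leukocytes, was higher by a log2 fold of 2.18. *Cx3cl1* was higher as well (0.96), but the call was lost without mouse 2 (adjusted p = 0.15), with at least 1 or at least 3 *Gja5* UMIs (0.078 and 0.16), with a stricter cell filter (0.08), without marked doublets (0.051), and after thinning (0.39).

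The ligand and the main receptor of VEGF signaling moved apart. *Vegfa* was at 489.8, 594, and 559 CPM, against 144, 160.1, and 185 (log2 fold 1.81, SE 0.11). *Kdr*, the main signaling receptor, was at 402, 333, and 210.0 CPM, against 875, 1209, and 989.7 (log2 fold -1.64, SE 0.16). *Flt1*, which binds VEGF-A with little signaling, was higher by a log2 fold of 0.33, which did not pass without mouse 2 or without mouse 4 (adjusted p = 0.17 and 0.06). Of the 8 tested genes of this list, 2 were higher and 4 were lower.

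Of 15 pan-endothelial genes, 4 were higher and 7 were lower. *Emcn*, a sialomucin of capillary and venous ECs, was at 183, 207, and 189.9 CPM, against 636, 625, and 598. *Pecam1*, an adhesion molecule of all ECs, was at 1658, 1718, and 1751 CPM, against 1581, 1725, and 1617 (log2 fold 0.12, SE 0.07, edgeR adjusted p = 0.31), and passed against all other cells with *Cdh5* and *Cldn5* (0.028). Of 10 genes tied to flow, 4 were higher and 3 were lower, beside 8.92% and 8.30% of all tested genes. *Thbd*, the thrombin receptor of the anticoagulant protein C pathway, was at 417, 393, and 424 CPM, against 1092, 1178, and 1052 (log2 fold -1.36, SE 0.08). The flow-regulated factor *Klf2* was at 866, 1020.4, and 840.1 CPM, against 757, 852, and 777. It did not pass (log2 fold 0.25, adjusted p = 0.055) but did with the mouse as a block (adjusted p = 0.017). It also passed against all other cells with *Cdh5* and *Cldn5* (0.0058) and other ECs without *Gja5* (0.045), with at least 1 *Gja5* UMI (0.026), after thinning (0.018), without marked doublets (0.04), and in cells with at most 2 smooth muscle UMIs (0.049). *Klf4* was lower (-0.39), but not without mouse 4 (adjusted p = 0.13), with at least 1 *Gja5* UMI (0.62), against all other cells with *Cdh5* and *Cldn5* (0.17), or after thinning (0.54).

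Of 17 tested BMP and TGF-beta genes, 8 were higher and 2 were lower, beside 8.92% and 8.30% of all tested genes. *Smad6*, an inhibitory SMAD, was at 671, 838, and 569.8 CPM, against 215, 325, and 246 (log2 fold 1.47, SE 0.14). *Smad7*, another inhibitory SMAD, and the BMP targets *Id1*, *Id2*, and *Id3* were higher by log2 folds of 0.88, 0.96, 1.09, and 0.74. The receptor *Tgfbr2* was lower (-0.78). Of 36 tested transcription factors, 11 were higher and 14 were lower, beside the same 8.92% and 8.30%. *Gata6* was at 431, 416, and 506 CPM, against 89.3, 89.1, and 95.1 (log2 fold 2.37, SE 0.10), and *Foxo1*, *Foxc1*, *Sox18*, and *Meis2* were higher by log2 folds between 0.94 and 1.21. *Foxf1*, which is needed for lung capillaries, was at 315, 365, and 301 CPM, against 629.8, 650.0, and 665, and *Aff3*, *Tbx3*, and *Ets2* were also lower.

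Most genes of the capillary types were lower in arterial than in other ECs as a whole. All 8 tested genes of *Car4*-type capillaries were lower, with a median log2 fold of -2.44. *Tbx2*, a transcription factor, was at 54.9, 20.01, and 10.96 CPM, against 145, 204, and 175. Of 8 genes of the *Aplnr* and *Kit* type, 7 were lower, and *Kit* was at 93.5, 142, and 197 CPM, against 627, 579.7, and 662. The other was *Plvap*, a protein of fenestrae and caveolae (log2 fold 0.23, adjusted p = 0.12), which passed with the mouse as a block (adjusted p = 0.033), with at least 1 *Gja5* UMI (0.027), and against all other cells with *Cdh5* and *Cldn5* (0.025). UMIs of capillary genes were found in arterial cells. Of the 123 arterial cells, 53 (43.1%) held at least 2 UMIs of *Kit* and *Aplnr* together, against 569 of 722 other ECs (78.8%), and 17 held at least 4 UMIs of *Car4* and *Ednrb*, against 158. Of the 1787 B-lineage cells, at a median of 4039 UMIs, 5 reached the first of these levels and 2 the second.

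Against other ECs as a whole, 2 of 9 tested venous genes were higher and 3 were lower. *Nr2f2*, the transcription factor of venous identity, was at 65.03, 62.2, and 14.6 CPM, against 159, 238, and 152, and *Prss23* was lower but did not pass with DESeq2 (adjusted p = 0.13). *Vwf* and *Selp*, both stored in the granules of ECs, were higher, with *Vwf* at 3443, 3557, and 2853 CPM, against 1147, 1568, and 1011, and *Selp* at 56.9, 100, and 111 CPM, against 10, 9.10, and 6.67. *Slc6a2*, the norepinephrine transporter, was at 280.4, 158, and 0 CPM in arterial ECs. All 209 of its arterial UMIs lay in 2 cells, 1 of them with 138. These were among 4 arterial cells with at least 2 UMIs of *Slc6a2* and *Nr2f2*. Without the 4 cells, 849 genes were higher and 804 lower, and 790 and 731 of these were among the 828 and 770.

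Markers of other lung cells were low, which the gate favored for leukocyte, fibroblast, and epithelial genes. Arterial and other ECs had both passed its limits on *Ptprc*, on *Col1a1* and *Col1a2*, and on *Sftpc*. These low levels are therefore not independent evidence of purity. The 12 smooth muscle and pericyte genes summed to 44.7, 17.8, and 36.5 CPM in arterial cells and to 48.6, 50.9, and 53.0 CPM in other ECs. *Myh11* was at 0 in the arterial cells, *Acta2* was the most abundant at a mean of 6.36 CPM, and *Rgs5*, the only gene of the 12 tested, was lower, with 3 arterial UMIs. The 8 fibroblast genes summed to 58.9, 51.1, and 54.8 CPM, with *Col3a1* the most abundant and 3 genes at 0. Neither of the 2 tested passed against other ECs as a whole. The 8 leukocyte genes summed to 36.6, 46.7, and 38.4 CPM, with *Lyz2* the most abundant and 2 genes at 0, and neither of the 2 tested passed. The 8 epithelial genes summed to 217, 107, and 163 CPM, against 229, 181, and 292 in other ECs, with *Scgb1a1* the most abundant. Of the 5 tested, *Hopx* was lower.

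Of 5 lymphatic genes outside the gate, *Ccl21a*, *Pdpn*, and *Reln* were at 0 in the arterial cells and *Flt4* was lower (log2 fold -0.65), but not without mouse 2 or without mouse 4 (adjusted p = 0.058 and 0.11). *Lyve1*, a hyaluronan receptor also found on lymphatic ECs, was at 1666, 1416, and 1673 CPM, against 508, 552, and 499.6 (log2 fold 1.68, SE 0.09). Genes induced by tissue dissociation also moved with the groups. Of 9 tested, *Egr1*, *Junb*, *Ier2*, and *Dusp1* were higher and *Jun* was lower. *Jun* did not pass without mouse 2, 3, or 4 (adjusted p = 0.14, 0.15, and 0.11), nor did *Junb* (0.059, 0.35, and 0.063), and *Ier2* did not without mouse 3 (0.079). With DESeq2 neither *Jun* nor *Junb* passed (0.056 and 0.078). The 12 genes of that list summed to 1492, 2263, and 1728 CPM, against 1444, 1796, and 1653 in other ECs, with *Jun* the most abundant, and their part in the other differences was not tested. None of 7 tested genes of dividing cells passed against other ECs as a whole, and 4 of 123 arterial cells held at least 2 UMIs of *Mki67* and *Top2a*, against 55 of 722 other ECs.

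**Figure D3:**
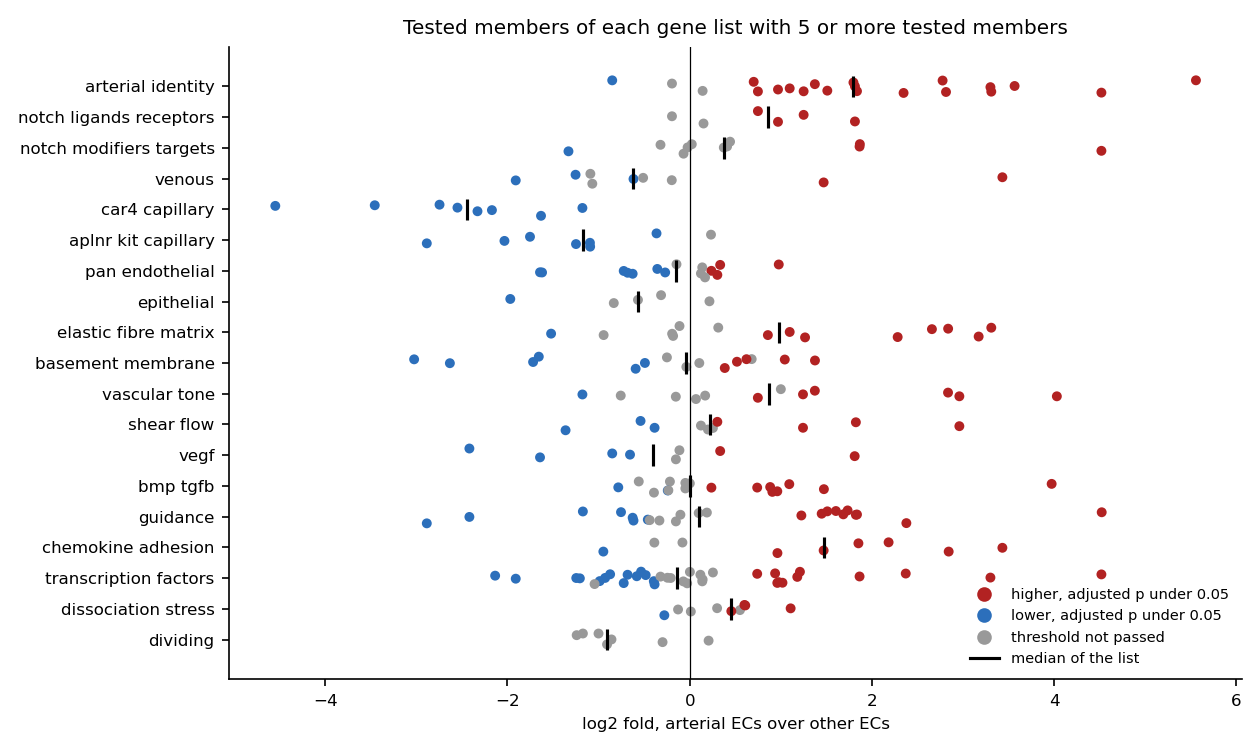
Log2 fold of arterial over other ECs (x axis) for each tested member of the gene lists with at least 5 tested members (rows), with red and blue for genes higher and lower at an adjusted p under 0.05, gray for genes that did not pass, and a black bar at the median of the list. The medians run from 1.80 for arterial genes to -2.44 for genes of *Car4*-type capillaries.

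To see which ECs the arterial cells differed from, the other ECs were split by gates on genes of veins and capillaries. Vein-gated ECs held at least 2 UMIs of *Slc6a2* and *Nr2f2* (167 cells). Of the remaining cells, *Car4*-gated ECs held at least 4 UMIs of *Car4* and *Ednrb* and more of these than of *Aplnr* and *Kit* (95 cells). *Aplnr*/*Kit*-gated ECs held at least 2 UMIs of *Aplnr* and *Kit* and more of these than of *Car4* and *Ednrb* (393 cells). The last 67 cells, with a median of 1865 UMIs, met none of the gates. All 4 groups entered 1 fit with 8464 genes, and genes of the gates were not tested. Against vein-gated ECs 552 genes were higher (6.52%) and 583 lower (6.89%), against *Car4*-gated ECs 993 were higher (11.7%) and 925 lower (10.9%), and against *Aplnr*/*Kit*-gated ECs 827 were higher (9.77%) and 696 lower (8.22%). The 3 comparisons share the arterial sums, and the groups differ in their numbers of cells, so their values are set side by side only.

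The direction of some genes described above depended on the group. *Vegfc* was lower than in vein-gated ECs (log2 fold -2.03, edgeR adjusted p = 4.5e-08), higher than in *Car4*-gated ECs (1.98, adjusted p = 0.001), and did not pass against *Aplnr*/*Kit*-gated ECs (0.32, adjusted p = 0.45). *Sox17* was higher than in vein-gated (0.64, adjusted p = 2.3e-04) and *Car4*-gated ECs (0.94, adjusted p = 4.7e-06) and did not pass against *Aplnr*/*Kit*-gated ECs (-0.26, adjusted p = 0.12). *Ackr3*, lower than in other ECs as a whole, was higher than in *Car4*-gated (1.06) and *Aplnr*/*Kit*-gated ECs (0.82), and *Prss23* was higher than in *Car4*-gated ECs (1.88). *Cx3cl1* was lower than in *Car4*-gated ECs (-1.04). Of the Notch genes that had not passed, *Dll1* was higher (2.23) and *Jag2* (-0.85) and *Mfng* (-1.07) were lower than in *Car4*-gated ECs. *Adam10* (0.64) and *Adam17* (0.51) were higher than in *Aplnr*/*Kit*-gated ECs, as was *Klf2* (0.54).

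The lists of venous and capillary genes also moved by group, which the gates favored, as they were set on other members of the same lists. Of 7 tested venous genes, 5 were lower and 1, *Selp*, was higher than in vein-gated ECs (median log2 fold -1.57). Against *Car4*-gated ECs 5 were higher and none lower (2.31), and against *Aplnr*/*Kit*-gated ECs 4 were higher and 1, *Ephb4*, was lower (2.12). Of 6 tested genes of the *Aplnr* and *Kit* type, 5 were lower than in *Aplnr*/*Kit*-gated ECs, while against *Car4*-gated ECs 2 were lower and 2 higher, *Plvap* (2.20) and *Cd93* (0.90), with a median log2 fold of -0.09. Of 6 tested genes of the *Car4* type, 6 were lower than in *Car4*-gated ECs and 2 than in *Aplnr*/*Kit*-gated ECs. Against vein-gated ECs 5 of the 6 *Car4*-type genes (median log2 fold -1.50) and 4 of the 6 of the *Aplnr* and *Kit* type (-0.52) were lower. Of 15 basement membrane genes, 3 were higher and 7 lower than in vein-gated ECs, 7 higher and 4 lower than in *Car4*-gated ECs, and 3 higher and 6 lower than in *Aplnr*/*Kit*-gated ECs. Of 7 tested genes of dividing cells, *Top2a* (-1.57) and *Mcm5* (-1.61) were lower than in *Aplnr*/*Kit*-gated ECs (median of the 7 -1.31), and none passed against vein-gated or *Car4*-gated ECs. Of 9 tested dissociation genes, 6 were higher and none lower than in *Aplnr*/*Kit*-gated ECs, with a median log2 fold of 1.05. Against *Car4*-gated ECs 3 were higher and 1 lower, and against vein-gated ECs none was higher and 1 was lower. Their part in these comparisons was not tested.

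*Hey1*, *Dll4*, *Cxcl12*, and *Efnb2* had the same order of means. *Hey1* averaged 414 ± 39.8 CPM in arterial ECs, 196 ± 30 in *Aplnr*/*Kit*-gated, 53.3 ± 11.4 in *Car4*-gated, and 28.1 ± 3.52 in vein-gated ECs (SD, n = 3). *Dll4* averaged 474 ± 6.83 CPM in arterial ECs, 198 ± 18.1 in *Aplnr*/*Kit*-gated, 157 ± 32.3 in *Car4*-gated, and 50.1 ± 2.36 in vein-gated ECs. Its values in the capillary groups overlapped, and the arterial values were above all others. *Cxcl12* and *Efnb2* both passed the test against each group, with log2 folds of 4.40 and 2.84 against vein-gated ECs. *Vegfa* averaged 547 ± 52.8 CPM in arterial, 223 ± 44.9 in *Aplnr*/*Kit*-gated, 100 ± 7.09 in vein-gated, and 79.6 ± 2.99 in *Car4*-gated ECs.

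*Mgp* and *Fbln5* had another order, with vein-gated ECs next to arterial ECs. *Mgp* averaged 5555 ± 905 CPM in arterial, 1378 ± 316 in vein-gated, 247 ± 201 in *Car4*-gated, and 27.02 ± 14.1 in *Aplnr*/*Kit*-gated ECs. *Fbln5* averaged 2255 ± 70.7 CPM in arterial ECs and 1207 ± 221 in vein-gated ECs (log2 fold 0.92, SE 0.14), and was at 101 ± 32.3 CPM in *Car4*-gated and 35.9 ± 12.4 CPM in *Aplnr*/*Kit*-gated ECs. Of the 14 matrix genes, 5 were higher and 4 lower than in vein-gated ECs, with a median log2 fold of -0.02, and the medians were 3.38 against *Car4*-gated and 2.98 against *Aplnr*/*Kit*-gated ECs. The 1 fibroblast gene tested was also higher than in *Aplnr*/*Kit*-gated ECs (log2 fold 1.47) and did not pass against *Car4*-gated ECs (1.66). Its part in the matrix differences was not tested.

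The 4 matrix genes lower in arterial than in vein-gated ECs were *Eln*, *Ltbp1* (log2 fold -0.45), *Mfap2* (-1.65), and *Mfap5* (-2.41). *Col3a1* of the fibroblast list (log2 fold -1.31) and *Rgs5* of the smooth muscle and pericyte list (-4.45) were also lower than in vein-gated ECs. These were the only tested genes of their lists, and their part in the matrix differences was not tested. *Eln* was at 8493, 14610.0, and 9289 CPM in vein-gated ECs of mice 2, 3, and 4 and at 8344, 8579, and 5985 CPM in arterial ECs, with ranges that overlapped (log2 fold -0.48, SE 0.14, edgeR adjusted p = 0.023). The capillary groups averaged 612 ± 86.3 and 725 ± 29.5 CPM. *Vwf* was at 3284 ± 378 CPM in arterial and 3336 ± 374 CPM in vein-gated ECs, with no difference beyond its spread (log2 fold -0.01, SE 0.19, edgeR adjusted p = 0.99). It averaged 147 ± 44.2 and 49.5 ± 31.7 CPM in the *Car4*-gated and *Aplnr*/*Kit*-gated ECs. *Foxc1*, a forkhead factor, did not pass against vein-gated ECs either (log2 fold -0.53, SE 0.21), while *Cytl1* was higher than in veins by a log2 fold of 2.67.

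Some genes had no UMI at all in a group. *Esr2* and *Kcne3* had none in the vein-gated cells, and with a floor of 3 UMIs over that group, 1.32 CPM, they were at least 57.6-fold and at least 44.4-fold higher in arterial cells. *Sfrp1* had none in the *Car4*-gated cells, at least 68.5-fold higher with the same floor of UMIs, and *Enpp6* had none in the *Aplnr*/*Kit*-gated cells, at least 62.4-fold higher. *Lyve1* averaged 1585 ± 146 CPM in arterial, 676 ± 55.9 in vein-gated, 447 ± 18.3 in *Aplnr*/*Kit*-gated, and 280.4 ± 169.9 in *Car4*-gated ECs, and the arterial values were above all others. *Col4a1*, *Kdr*, *Emcn*, and *Thbd* were lower in arterial ECs than in each group. *Col4a1* averaged 924 ± 100.5 CPM in arterial ECs, against 2301 ± 310.2 in vein-gated ECs, the lowest of the other groups. *Thbd* averaged 411 ± 15.8 CPM, against 1195 ± 67.9, 1167 ± 50.5, and 1062 ± 42.99 in the vein-gated, *Car4*-gated, and *Aplnr*/*Kit*-gated ECs.

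**Figure D4:**
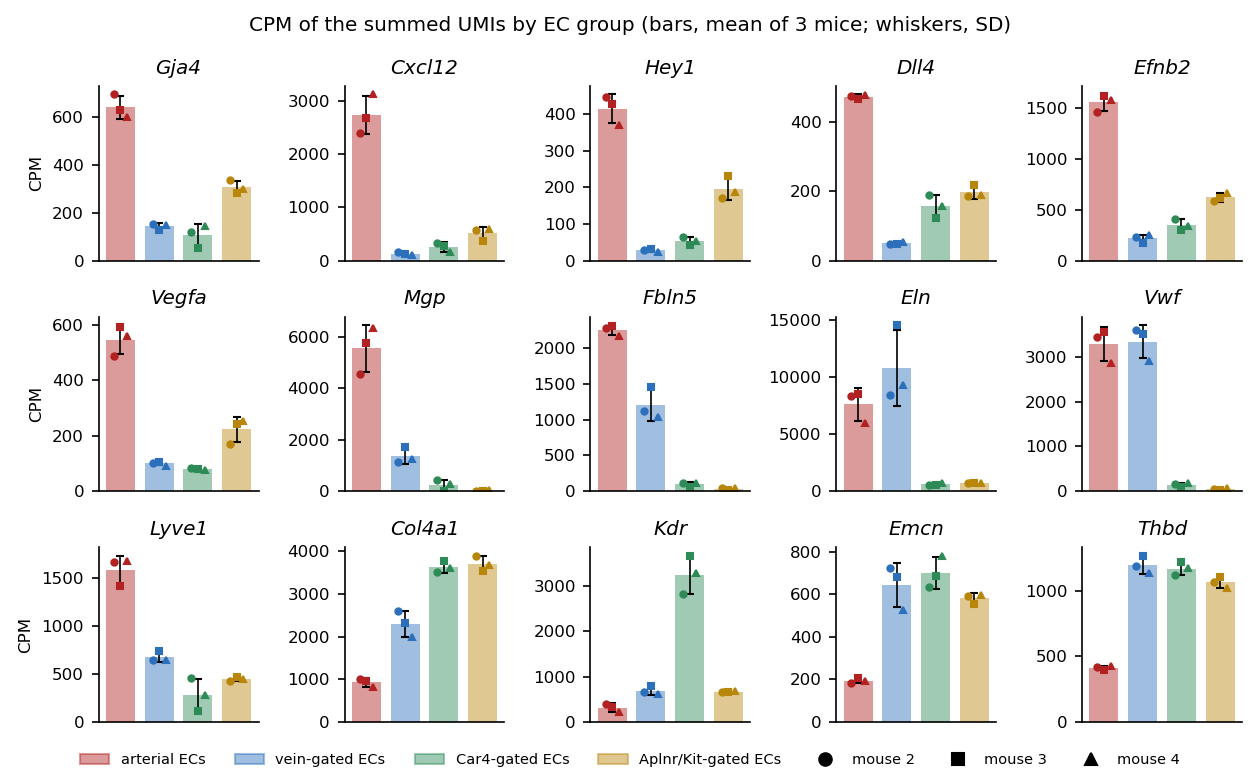
CPM of 15 genes in arterial (red), vein-gated (blue), *Car4*-gated (green), and *Aplnr*/*Kit*-gated ECs (yellow), with bars for the mean of 3 mice, whiskers for the SD, symbols for mice, and a y axis from 0 in each panel. *Dll4* is at 474 CPM in arterial and 50.1 CPM in vein-gated ECs, *Vwf* is at 3284 and 3336 CPM in these groups, and *Col4a1* is lowest in arterial ECs.

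Because the gate is a threshold on *Gja5*, levels on both sides of it were set out by the number of *Gja5* UMIs, as a description with no test. There were 43 cells with 1 *Gja5* UMI, just outside, and 22 cells with 2, just inside. Pooled over mice, cells with 1 UMI held *Cxcl12* at 1396 CPM and *Hey1* at 312 CPM. Cells with 2 UMIs held them at 1513 and 294 CPM, and the 679 cells with 0 at 337 and 104 CPM. The cells on the 2 sides of the gate were thus close in both genes. *Kit* was at 467 CPM with 1 UMI and at 290.1 CPM with 2. The cells just inside the gate differed between mice, and *Sema3c* was at 105, 128, and 1658 CPM in mice 2, 3, and 4.

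Different patterns followed along *Gja5*. *Dll4* leveled off, at 328 CPM in cells with 2 UMIs, 505 with 3 to 6, 519 with 7 to 13, and 509 with 14 or more, and *Hey1* did the same. Pooled over mice, other genes went on increasing to the cells with the most *Gja5*. Over the same bins *Mgp* was at 2041, 4407, 6281, and 7824 CPM, *Cytl1* at 187, 409, 539, and 943 CPM, and *Sfrp1* at 41.4, 144, 216, and 430.3 CPM. The last step held in mice 2 and 4 but not in mouse 3, where *Mgp* was at 10107 CPM in cells with 7 to 13 UMIs and 5008 CPM in those with 14 or more, and where *Cytl1* and *Sfrp1* were also lower in the last bin. Pooled *Col4a1* decreased, at 1516, 976, 873, and 593 CPM, and in each mouse it was lower in the last bin than in cells with 2 UMIs. This held for *Sema3c* as well, at 767, 141, 94.3, and 36.5 CPM pooled, but without mouse 4 its first value was 114 CPM and the next 144 CPM. *Esr2* had neither pattern, at 65.6, 73.3, 121, and 58.3 CPM, and in the last bin it was at 0 in mouse 2, which gave 6 cells to it. The 30 cells of the last bin were also the deepest, with a median of 13237.5 UMIs against 8316.5 in cells with 2, and the medians of the 2 bins between were 7514 and 8704.5, so depth stood apart in the last bin and its part was not tested.

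**Figure D5:**
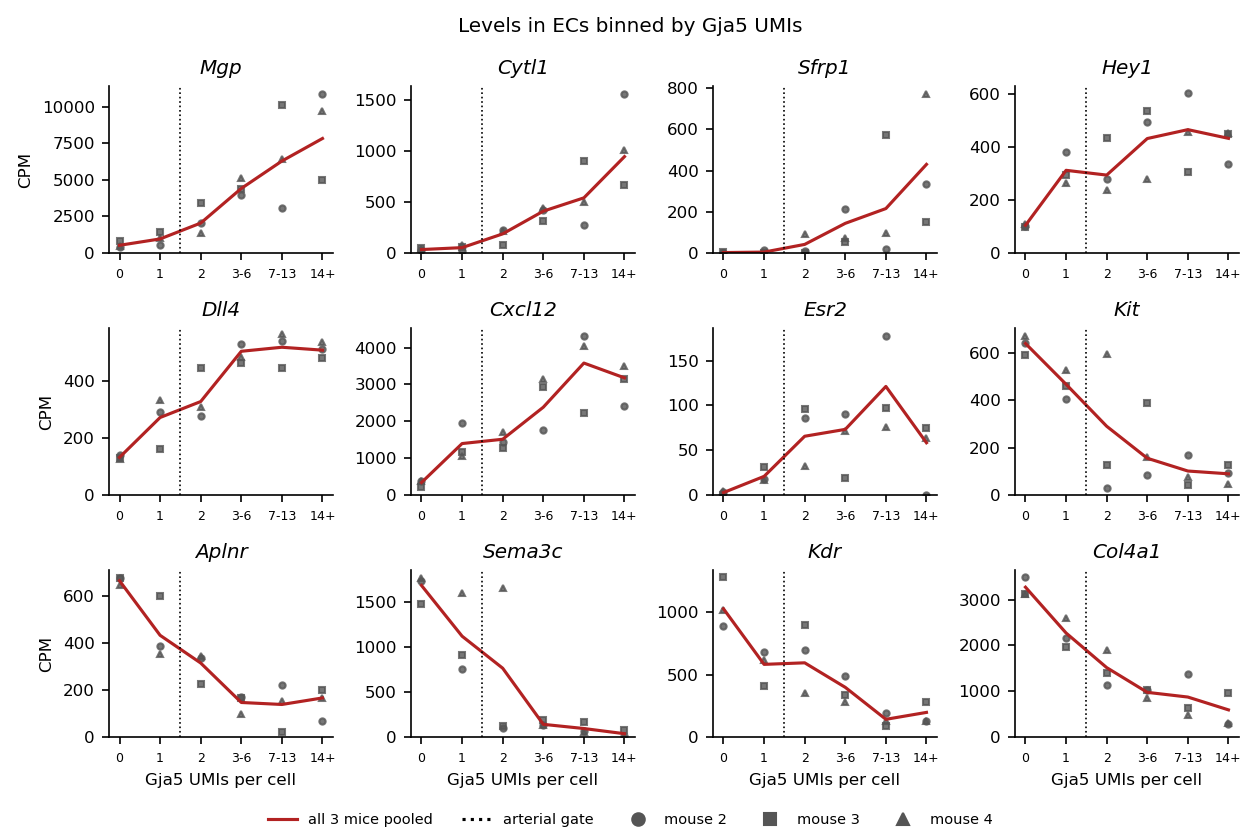
CPM of 12 genes (y axis) in ECs grouped by their number of *Gja5* UMIs (x axis), with symbols for mice, a red line for the 3 mice pooled, and a dotted line at the arterial gate. The pooled lines of *Mgp*, *Cytl1*, and *Sfrp1* increase through the last bin, which the symbols of mouse 3 do not follow, *Hey1* and *Dll4* level off from 3 to 6 UMIs, and *Kit*, *Sema3c*, and *Col4a1* decrease.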

How the data were processed

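The authors made 1 10x library of 3′ ends from each of 3 mice and deposited UMI counts, not normalized, for each cell over 28692 features. Cell Ranger 3.0.2 and the build mm10 are named in the submitters' processing notes. The deposited matrices hold 9644 cells, the series record gives 5677, and 7642 remained with 200 genes or more and no more than 20% of UMIs from mitochondrial genes. The filtered cells held 22300042, 20804836, and 23442355 UMIs in mice 2, 3, and 4. There were 0 columns of other samples.

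The gated counts were summed per mouse and tested with edgeR 4.0.16 in R 4.3.3 (TMM scaling, filterByExpr, quasi-likelihood test, Benjamini-Hochberg adjustment over all tested genes). Gate genes stayed in the library sizes but were given no call. DESeq2 1.42.0 was an alternative. On simulated counts for arterial against other ECs (9223 genes), edgeR recovered 96.4% of 197 genes changed by a log2 fold of 2, and DESeq2 90.9%. The simulated counts had the same dispersion for every gene and no effect of the mouse. Smaller folds were not simulated. Doublets were marked as the top 0.8% per 1000 cells by a score from simulated doublets, and were kept. They were 156 cells, 1 of them arterial.

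The arterial and other-EC sums of a mouse come from the same animal and are therefore pairs. The main test had the group as its only term and did not use this pairing. An alternative had the mouse as a block. The correlations of their deviations from the group means were 0.0921, 0.159, and 0.211 over 3245 genes. The arterial sums of all pairs of mice differed by more than the counting noise of UMIs, with chi-square values of 1.50 to 1.68 per degree of freedom. The part of drawing only 30 to 48 cells per mouse was not tested.

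The text counts the members of 25 gene lists (279 genes, 275 matched by symbol and 4 by gene ID), names some of them, and names the 20 largest and 10 smallest log2 folds among genes past the threshold, moved the same way in all 3 mice, with at least 50 CPM in the higher group. A few of these genes are not reported here. The cells, the lists, and the rule were chosen with earlier results of these data known. Alternatives changed the tool, the scaling, the filters, the *Gja5* threshold, the comparison cells, the depth, and the mice included.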

Additional observations from a re-analysis of the deposited data

Results flagged for a closer look

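Cells with at least 2 UMIs of *Gja5* outside the arterial cells drew attention because no comparison used them. There were 52 such cells below the *Cdh5* and *Cldn5* threshold, 16, 15, and 21 in mice 2, 3, and 4, with a median of 15762 UMIs. Of these, 50 held more than 5 UMIs of *Col1a1* and *Col1a2*, and 9 held any UMI of *Pecam1*, *Cdh5*, or *Cldn5*. Summed, they held *Gja5* at 180.4 CPM, *Gja4* at 1.21 CPM, and *Cxcl12* at 72.6 CPM. Another 17 cells, 3, 9, and 5 in the 3 mice, reached the *Cdh5* and *Cldn5* threshold but failed an exclusion, 10 with collagen, 7 with *Ptprc*, and 4 with *Prox1* or *Mmrn1*, some with more than 1 of these. Their median depth was 29869 UMIs, and they held *Gja5* at 239 CPM, *Gja4* at 280.4 CPM, and *Cxcl12* at 935 CPM.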

How the results depend on the processing

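Thinning every cell to 3000 UMIs before the gate left 5830 genes to test, of which 436 were higher and 413 lower in arterial ECs. Counts of genes were within 1.5 times the main ones under the other alternatives tried with all mice, from 637 (DESeq2) to 917 (no filter on low counts) higher and from 573 (DESeq2) to 1029 (no filter) lower. Without TMM scaling 733 were higher and 894 lower. With the mouse as a block 848 were higher and 803 lower, and 814 and 752 of these were among the 828 and 770. Among the named genes the block changed the calls of *Klf2* (adjusted p = 0.017) and *Plvap* (0.033), and no other. Leaving out a mouse gave 583 to 675 higher and 525 to 621 lower genes, and, against vein-gated, *Car4*-gated, and *Aplnr*/*Kit*-gated ECs, 377 to 426, 746 to 819, and 653 to 704 higher and 398 to 463, 695 to 756, and 491 to 558 lower genes. The share of arterial cells among cells with *Cdh5* and *Cldn5* was 17.5% with at least 1 *Gja5* UMI, 10.6% with at least 3, and 13.8% after thinning, and that of filtered cells was 2.18% with at least 1 *Gja5* UMI. Leaving out a mouse gave shares of 12.9% to 13.2% and of 1.48% to 1.85%. Of 2120 log2 folds of 133 named genes under the alternatives, 2054 kept direction and call, 53 lost the call, 12 gained it, and 1 reversed, that of *Gucy1a1* against all other cells with *Cdh5* and *Cldn5* (-0.741). All of these log2 folds were for arterial against other ECs, and for 111 genes no alternative changed that call. Among genes described above, thinning also ended the calls of *Ackr3* (adjusted p = 0.096), *Flt4* (0.54), *Foxc1* (0.17), *Jun* (0.38), and *Junb* (0.15). The log2 folds of *Foxc1* and *Junb* were no smaller after thinning (1.02 and 0.72). The causes were not tested. The arterial sums held 449811 to 547535 UMIs per mouse, which leaves 9278 of 15679 genes with a UMI above the filter on low counts.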

Other observations

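Another 2 cells, both of mouse 4, met every condition on UMIs of the arterial gate but not the filter on cell quality, and entered no comparison.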
